A study of Mus musculus with 12 samples.

Results

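Corticosteroid receptors and a set of glucocorticoid-induced genes were followed through the hippocampus of APP/PS1 and wild-type mice. The 10 genes were listed by name: the glucocorticoid receptor Nr3c1, the mineralocorticoid receptor Nr3c2, the steroid-activating enzyme Hsd11b1, the induced genes Fkbp5, Sgk1, Tsc22d3, Cdkn1a and Errfi1, and the metallothioneins Mt1 and Mt2. Their rows were found by Ensembl identifier among the 55573 genes of the count table. All 10 were among the 14008 genes that passed the expression filter and were tested.

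The 12 mRNA libraries each came from 1 right hippocampus, taken at 4.5 months from C57BL/6J mice: 8 were APP/PS1, with 4 females and 4 males, and 4 were WT, with 2 of each sex. APP/PS1 mice (APPSwe/Ps1dE9) carry 2 transgenes with mutations found in familial Alzheimer's disease, one for a mouse/human hybrid of the amyloid precursor protein and one for human presenilin 1 without exon 9. Regulatory sequence of a prion gene drives both, and the mice model familial rather than sporadic disease. WT mice carry neither transgene. The design asks how genotype alters expression in each sex, in both sexes combined, and differently between the sexes.

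Corticosterone, the main glucocorticoid of mice, binds 2 nuclear receptors that act as transcription factors. The mineralocorticoid receptor has the higher affinity and is abundant in hippocampal neurons, whereas the glucocorticoid receptor is occupied mostly during stress and at the daily hormone peak. The ligand-bound glucocorticoid receptor drives genes such as Fkbp5, Sgk1 and Tsc22d3, represses inflammatory genes and lowers its own expression, and the enzyme encoded by Hsd11b1 regenerates active hormone inside cells.

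Total counts ranged from 36714316 to 50643565 per library. Values below are normalized CPM, counts per gene divided by library sizes that were scaled by upper-quartile factors. Genes were tested on the counts with edgeR's quasi-likelihood test, with 2 factors of unwanted variation (RUV factors) in the model, and were called at an FDR under 0.1. Choroid plexus transcripts were abundant in 3 libraries: Ttr, the transthyretin gene of that tissue, was at 3517 normalized CPM in APP/PS1 female 1, at 6339 in APP/PS1 male 2 and at 3634 in WT female 2, and between 2.68 and 18.2 in the other 9. Of 10 microglial markers, 6 were called higher in APP/PS1, and their summed level was 567 to 949 normalized CPM in APP/PS1 libraries and 370.5 to 481 in WT libraries. Neuronal markers were abundant in every library, with summed levels from 8845 to 10087 normalized CPM. In bulk tissue, fewer cells of a type and less RNA per cell cannot be told apart.

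The promoters of 3 of the genes are shown because Mt1 and Mt2 are neighbours whose levels moved together over the libraries, and because Sgk1 was among the genes that differed most between libraries. Cdkn1a, which differed slightly more, is not printed. RefSeq promoter windows (build GRCm38.p6), each with 250 bases before a transcription start and 50 after it, were matched for 9 of the 10 genes and gave 18 windows. They were searched on both strands for the glucocorticoid response element (AGAACA, any 3 bases, then TGTTCT), for its 6-base arm TGTTCT alone, and for the metal response element as TGCGCNC or TGCACNC. The full element holds the arm once on each strand. Of the 6 Sgk1 windows, only the one printed holds the full element. The windows below are printed up to 30 bases after the start, 5′ to 3′ on the plus strand, with matches in capitals. They lie at chr8:94178839-94179118 (Mt1), chr8:94172368-94172647 (Mt2) and chr10:21993640-21993919 (the fifth of 6 Sgk1 starts).
Mt1: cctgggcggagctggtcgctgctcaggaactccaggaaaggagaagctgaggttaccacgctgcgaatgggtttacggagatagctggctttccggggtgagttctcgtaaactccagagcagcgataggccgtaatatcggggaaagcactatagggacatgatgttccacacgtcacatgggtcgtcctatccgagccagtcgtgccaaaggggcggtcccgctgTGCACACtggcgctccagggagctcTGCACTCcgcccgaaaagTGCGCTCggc
Mt2: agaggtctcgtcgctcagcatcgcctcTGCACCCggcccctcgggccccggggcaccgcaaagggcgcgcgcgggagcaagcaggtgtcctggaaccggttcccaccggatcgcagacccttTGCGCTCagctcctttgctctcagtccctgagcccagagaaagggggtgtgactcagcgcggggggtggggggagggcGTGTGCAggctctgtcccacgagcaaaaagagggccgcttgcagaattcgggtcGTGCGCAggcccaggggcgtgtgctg
Sgk1: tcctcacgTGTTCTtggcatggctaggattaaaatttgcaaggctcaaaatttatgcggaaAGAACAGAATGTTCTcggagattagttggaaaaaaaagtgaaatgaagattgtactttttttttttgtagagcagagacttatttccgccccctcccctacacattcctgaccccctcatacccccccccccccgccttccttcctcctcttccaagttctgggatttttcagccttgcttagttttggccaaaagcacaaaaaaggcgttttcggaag

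The full glucocorticoid response element was found in 3 of 32851 windows of all genes (0.00913%), of which this Sgk1 window was one. There it read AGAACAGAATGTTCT and spanned positions -189 to -175, counted from the start base as 0. Single arms, present in 19% of all windows, were also found in other Sgk1 windows and in one of Tsc22d3. Metal response elements of either form numbered 3 in the Mt1 window and 4 in the Mt2 window, and 1.97% of all windows held 3 or more. None of these letters was present in the 2 Cdkn1a windows or in the windows of Fkbp5. These matches describe the sequences and do not identify bound sites. Sequence outside the windows and elements that differ from these letters were not searched, so a window without a match does not show that a gene lacks such elements.

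Both receptors were well expressed. Per kilobase of exonic length, Nr3c2 averaged 29.6 ± 3.84 normalized CPM and Nr3c1 14.3 ± 2.03 (SD, n = 12 libraries). Nr3c1, the glucocorticoid receptor, was at 99.7 and 82.3 normalized CPM in WT females and at 119 and 99.3 in WT males. It was at 115, 112, 105 and 89.2 in APP/PS1 females and at 131, 127, 129 and 108 in APP/PS1 males. Thus 3 APP/PS1 males exceeded every WT library of either sex, while the 4 APP/PS1 females and APP/PS1 male 4 lay within the pooled WT range. Levels averaged 91.0 and 109 in WT females and males, and 105 and 124 in APP/PS1 females and males. Fitted log2 fold changes were 0.21 in females and 0.18 in males, with an unadjusted interaction p of 0.878 in edgeR's quasi-likelihood test. The log2 fold change of APP/PS1 against WT, averaged over the sexes, was 0.19 (SE 0.093), with an unadjusted p of 0.0633 and an adjusted p of 0.567 in edgeR's quasi-likelihood test. Nr3c1 passed the threshold when APP/PS1 female 4 was left out (adjusted p = 0.0966 in the same test), and without WT female 2 its log2 fold change was 0.10.

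Nr3c2, the mineralocorticoid receptor, was not called either, and its difference was not tested against that of Nr3c1. Nr3c2 was at 219 and 165 normalized CPM in WT females and at 231 and 146 in WT males. It was between 165 and 219 in the 8 APP/PS1 libraries, with a median of 191. The APP/PS1 values all lay inside the WT range. Its log2 fold change averaged over the sexes was -0.03, with a 95% interval from -0.23 to 0.17. Nr3c2 overlaps an annotated gene on its own strand and others antisense to it. Its value is therefore uncertain to that extent, because the strand option of the counting is not given in the sources used here.

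Hsd11b1, which regenerates active glucocorticoid from its inert keto form, was the least abundant of the 3 genes of hormone sensing and supply, with 6.83 ± 1.2 normalized CPM per exonic kilobase (SD, n = 12). Its level was between 24.5 and 36.9 normalized CPM in APP/PS1 libraries, with a median of 29.5, and between 20.6 and 35.3 in WT libraries. The groups overlapped almost entirely, and the averaged log2 fold change was 0.08 (95% interval from -0.13 to 0.28). Hsd11b1 overlaps Lamb3 and a further transcript on the opposite strand and a predicted gene on its own, so its counts are uncertain in the same way.

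**Figure D1:**
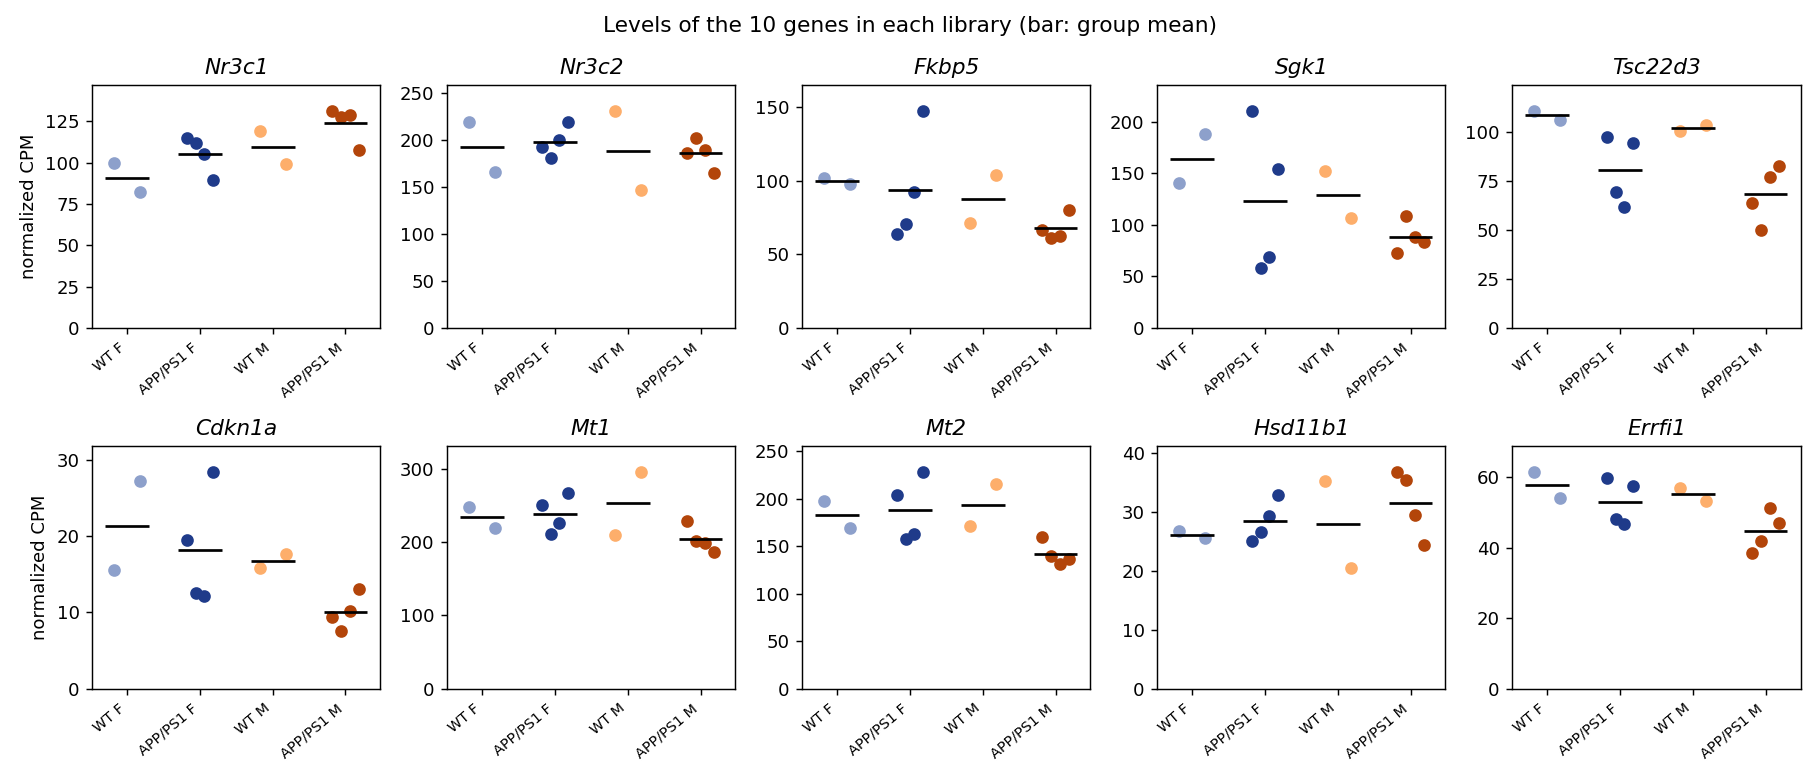
Normalized CPM (vertical axes, from 0) of the 10 genes in the 2 WT females, 4 APP/PS1 females, 2 WT males and 4 APP/PS1 males. Each point is 1 library and each bar a group mean. For Tsc22d3 all 8 APP/PS1 points lie below the 4 WT points, whereas the genotypes, with both sexes pooled, overlap for the other 9 genes.

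Of the induced genes, Tsc22d3 was the one that separated the genotypes. Tsc22d3 encodes the leucine zipper protein GILZ, a mediator of anti-inflammatory glucocorticoid action, and lies on chromosome X (GRCm38, positions 140539528 to 140600659, minus strand) with no overlapping annotated gene. It was at 111 and 107 normalized CPM in WT females and at 101 and 104 in WT males. It was at 97.9, 69.6, 61.8 and 94.9 in APP/PS1 females and at 63.8, 50.3, 77.4 and 83.1 in APP/PS1 males. Every APP/PS1 library was therefore below every WT library, although APP/PS1 female 1 came close to WT male 1.

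Such a pattern, with all APP/PS1 libraries below all WT libraries, was shown by 19 of the 14008 genes tested (0.136%). The averaged log2 fold change of Tsc22d3 was -0.48 (SE 0.176). In edgeR's quasi-likelihood test the unadjusted p was 0.0272 and the p adjusted over all genes was 0.425, so Tsc22d3 was not called. An exact permutation test of the difference in its mean log2 level, two-sided and over libraries, gave p = 0.0121, where the smallest value possible with 8 and 4 libraries was 0.00202. It was the smallest p of 10 such tests, 1 for each gene and none adjusted for their number, and exact p ranged from 0.0869 to 0.812 for the other 9 genes. The separation held under 3 scalings but was narrow: the highest APP/PS1 value and the lowest WT value were 97.9 and 100.9 with upper-quartile scaling, 98.1 and 100.8 with TMM scaling, and 99.9 and 100.4 with no scaling beyond total counts.

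Fkbp5 and Sgk1 did not separate the groups. Fkbp5 encodes a co-chaperone that dampens glucocorticoid receptor sensitivity in a feedback loop. It was at 102 and 97.8 normalized CPM in WT females and at 71.0 and 104 in WT males. In APP/PS1 females it was at 63.9, 70.6, 92.5 and 147, and in APP/PS1 males at 66.7, 61.3, 62.6 and 80.0. The highest and the lowest libraries were both APP/PS1, and 5 of 8 APP/PS1 libraries were below every WT library. APP/PS1 against WT gave a log2 fold change of -0.30 over both sexes (SE 0.22, adjusted p = 0.75 in edgeR's quasi-likelihood test). This value was -0.45 without WT male 1 and -0.12 without WT male 2. Fkbp5 overlaps annotated genes on both strands, so its counts carry the uncertainty described for Nr3c2.

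Sgk1, a kinase that regulates ion channels and transporters and also responds to osmotic and growth signals, ranged still more widely. It was at 141 and 188 normalized CPM in WT females and at 152 and 106 in WT males. In APP/PS1 females it was at 210.3, 58.3, 69.0 and 154, and in APP/PS1 males at 72.2, 109, 88.5 and 83.6. Its 2 highest values, in APP/PS1 female 1 and WT female 2, came from choroid plexus-rich libraries. The third such library, APP/PS1 male 2, had the most Ttr and a Sgk1 level of 109. Over the 12 libraries the log2 levels of Sgk1 and Ttr had a Pearson r of 0.48 and a Spearman rho of 0.22, given as a description. The averaged log2 fold change was -0.61 (SE 0.293, adjusted p = 0.593 in edgeR's quasi-likelihood test). With single libraries left out it ranged from -0.85 without APP/PS1 female 1 to -0.46 without APP/PS1 female 2. The part of choroid plexus tissue in the Sgk1 level was not tested.

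Cdkn1a, which encodes the cell cycle inhibitor p21 and is induced by p53 as well as by glucocorticoids, was the lowest of the 10 genes at 4.43 ± 1.86 normalized CPM per exonic kilobase (SD, n = 12). It was at 15.6 and 27.2 normalized CPM in WT females and at 15.8 and 17.6 in WT males. In APP/PS1 females it was at 19.5, 12.5, 12.2 and 28.5, and in APP/PS1 males at 9.34, 7.53, 10.1 and 13. All 4 APP/PS1 males were below every WT library of either sex, and 2 APP/PS1 females were above most WT libraries. The share of all genes with such a pattern in males was not counted. Over both sexes the log2 fold change was -0.52 (SE 0.301, adjusted p = 0.667 in edgeR's quasi-likelihood test), and it was -0.24 without WT female 2. In males it was -0.76 with a 95% interval from -1.76 to 0.24, and in females -0.28 with one from -1.33 to 0.78. A gene antisense to Cdkn1a is annotated, as for Errfi1 and Mt2, and the counts of all 3 are uncertain to that extent.

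Errfi1, a feedback inhibitor of the EGF receptor, showed a smaller difference with less scatter. It was at 61.5 and 54.0 normalized CPM in WT females and at 57.0 and 53.2 in WT males, and between 38.4 and 59.8 in the 8 APP/PS1 libraries with a median of 47.5. In 6 of the 8 APP/PS1 libraries it was below every WT library, and in APP/PS1 females 1 and 4 it was within the WT range. Averaged over the sexes, its log2 fold change was -0.22 (SE 0.0962), with an unadjusted p of 0.0477 and an adjusted p of 0.519 in edgeR's quasi-likelihood test.

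The metallothioneins Mt1 and Mt2, small proteins that bind zinc and copper and are induced by metals and by glucocorticoids, were the most abundant of the 10 genes per length. Mt2 averaged 294 ± 54.1 and Mt1 184 ± 25.4 normalized CPM per exonic kilobase (SD, n = 12). Mt2 was at 198 and 169 normalized CPM in WT females and at 171 and 215 in WT males. It was at 204, 157, 163 and 229 in APP/PS1 females and at 159.7, 139.5, 132 and 137 in APP/PS1 males. All 4 APP/PS1 males were thus below every WT library of either sex, as for Tsc22d3, Cdkn1a and Errfi1. The APP/PS1 females spanned the WT values of Mt2. How many of all genes tested show such a pattern in males was not counted, so it is given as a description only. WT females entered the comparison too, so sex was not held equal. In males the log2 fold change was -0.46 (SE 0.162), with an unadjusted p of 0.0207 and an adjusted p of 0.808 in edgeR's quasi-likelihood test, and in females it was -0.01. The male value was -0.63 without WT male 1 and -0.24 without WT male 2.

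Mt1 was between 187 and 267 normalized CPM in APP/PS1 libraries, with a median of 219, and between 210.0 and 296 in WT libraries. The groups overlapped in most of that range. The averaged log2 fold change was -0.16 (SE 0.105, adjusted p = 0.698 in edgeR's quasi-likelihood test). Without WT male 1 it was -0.29 and the adjusted p was 0.064. That library held the lowest WT level of Mt1. Without WT male 2 the log2 fold change was -0.02.

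Across the comparisons none of the 10 genes was called. In the contrast averaged over the sexes 1.84% of all genes tested were called, in females 0.75%, in males 0.157%, and none in the interaction, with 0 of the 10 in each. These contrasts share libraries. edgeR's likelihood ratio test and DESeq2 with the same factors also called 0 of the 10 in each of them. At an unadjusted p under 0.05 in the averaged contrast, 2 of the 10 genes (Tsc22d3 and Errfi1) were lower and 0 higher, against 3.31% and 6.15% of all genes. In females 0 of 10 reached this level, against 9.52% of all genes, and in males 1 did (Mt2), against 5.14%. The averaged log2 fold change was below 0 for 8 of the 10 genes and for 45.5% of all genes, with medians of -0.23 and 0.01.

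**Figure D2:**
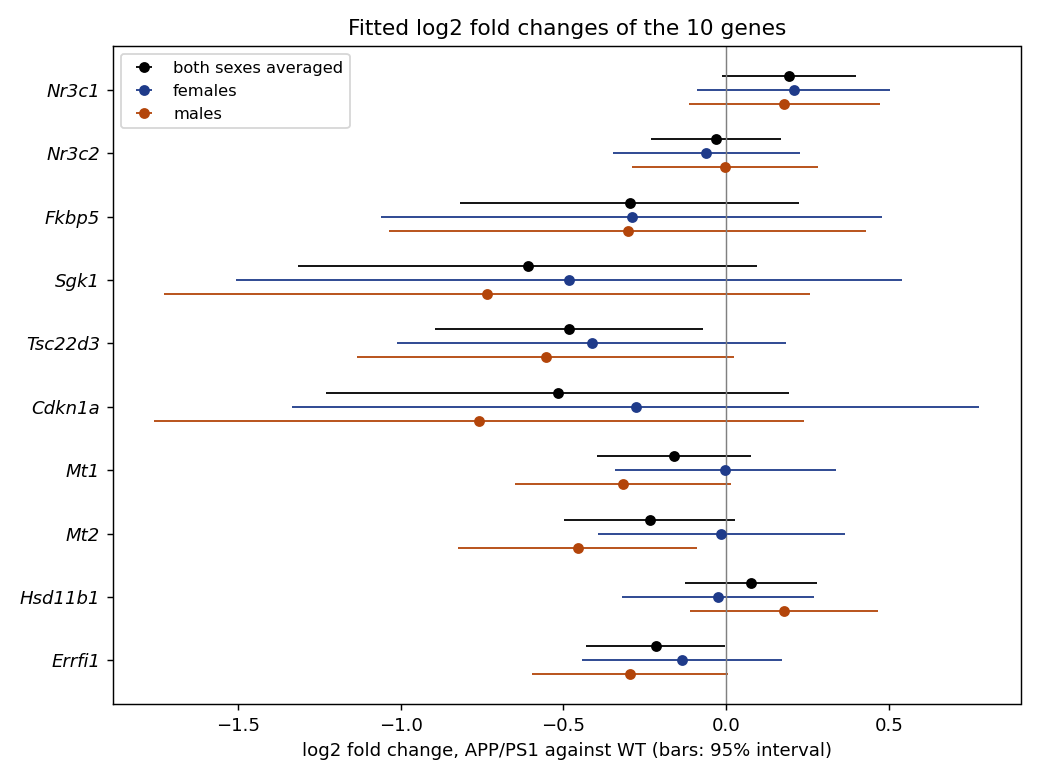
Fitted log2 fold changes of APP/PS1 against WT (horizontal axis) for the 10 genes in both sexes averaged, in females and in males, with bars for 95% intervals. Only the averaged values of Tsc22d3 and Errfi1 and the male value of Mt2 have intervals that leave out 0, and Sgk1 and Cdkn1a have the widest intervals.

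Female and male effects did not differ detectably for any of the 10 genes, and 0 of them had an unadjusted interaction p under 0.05, against 3.57% of all genes. The smallest unadjusted interaction p was that of Mt2, 0.0933, where the female effect exceeded the male one by 0.44 on the log2 scale (95% interval from -0.09 to 0.98). Between WT females and WT males 0.05% of all genes were called, and 0 of the 10, with 0 of the 10 and 4.47% of all genes at an unadjusted p under 0.05. Between APP/PS1 females and APP/PS1 males 0.0857% of all genes were called, again with 0 of the 10. At an unadjusted p under 0.05 in the latter comparison, 3 of the 10 genes were higher in females, against 2.88% of all genes. Their log2 fold changes were 0.41 for Mt2, 0.25 for Errfi1 and 0.84 for Cdkn1a, and their adjusted p was 0.857, 0.919 and 0.919 in edgeR's quasi-likelihood test.

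The spread between libraries was large for several induced genes. The coefficient of variation over the 12 libraries was 42.0% for Cdkn1a, 41.3% for Sgk1, 29.7% for Fkbp5 and 23.8% for Tsc22d3, against a median of 9.35% over all genes tested. Cdkn1a was above 97.3% of all genes in this respect, and Sgk1 above 97.2%. The highest library exceeded the lowest by 3.78-fold for Cdkn1a and 3.61-fold for Sgk1, whereas the median gene had a ratio of 1.36. The receptors were steadier than Cdkn1a, Sgk1, Fkbp5 and Tsc22d3, with coefficients of variation of 14.2% for Nr3c1 and 13% for Nr3c2. They were still above 73.6% and 69.4% of all genes. The induced genes Errfi1 and Mt1 lay between the receptors in this respect, and Mt2 was at 18.4%.

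To order the libraries, the log2 levels of Fkbp5, Sgk1, Tsc22d3, Cdkn1a and Errfi1 were standardized over the 12 libraries and averaged. APP/PS1 female 4 ranked highest at 1.21, followed by WT female 2 at 0.98, WT female 1 at 0.80 and APP/PS1 female 1 at 0.62. WT male 2 and WT male 1 followed at 0.49 and 0.40. The remaining 6 libraries were all APP/PS1 and all below 0, down to -1.17 in APP/PS1 male 1 and -1.20 in APP/PS1 male 2. All 4 WT libraries and 2 of 8 APP/PS1 libraries, both female, thus stood in the upper part of the order. APP/PS1 female 4 had the highest Fkbp5, Cdkn1a and Mt2 of the 12 libraries.

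Several of the induced genes varied together, and the glucocorticoid receptor ran opposite to some of them. Among the 45 pairs of the 10 genes, 10 had a correlation of log2 levels with an adjusted permutation p under 0.05 (Pearson r, Benjamini-Hochberg over the 45 pairs), 8 of them positive and 2 negative. Mt1 and Mt2 had the highest coefficient, with r = 0.92 and rho = 0.89 (permutation p = 4e-05 and 0.00026, adjusted p = 0.0018 and 0.00607). Tsc22d3 and Errfi1 had r = 0.86 and rho = 0.83 (permutation p = 0.00026 and 0.00134, adjusted p = 0.00585 and 0.0201). The other positive pairs were Tsc22d3 with Cdkn1a, Cdkn1a with Errfi1, Cdkn1a with Mt2, Sgk1 with Errfi1, Fkbp5 with Cdkn1a and Nr3c2 with Hsd11b1, with r between 0.72 and 0.81. Among the induced genes, Fkbp5 did not pass with Sgk1, Errfi1 or Tsc22d3 (r = 0.26, 0.44 and 0.50). Sgk1 did not pass with Tsc22d3 or Cdkn1a (r = 0.68 and 0.69). The adjusted permutation p of these pairs lay between 0.0573 and 0.533.

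Nr3c1 was low where Fkbp5 was high. Over the 12 libraries r was -0.86 and rho -0.88 (permutation p = 0.00041 and 0.00027, adjusted p = 0.00615 and 0.00607). Without WT female 2 and APP/PS1 female 4, the libraries farthest from the median of Nr3c1, r was -0.91. It was -0.95 in the 9 libraries without much choroid plexus tissue and -0.92 within the 8 APP/PS1 libraries. Nr3c1 and Cdkn1a had r = -0.85 and rho = -0.75 (permutation p = 0.00063 and 0.00734, adjusted p = 0.00709 and 0.0443), with r = -0.67 without the same 2 libraries. With 4 WT libraries no coefficient was computed within WT.

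The sign of r was unchanged for all 10 pairs without the 3 choroid plexus-rich libraries, within the 8 APP/PS1 libraries, and without the 2 libraries farthest from the median. The permutations shuffled libraries across genotype and sex, so differences between groups also enter these p-values. With group means removed, r was between 0.46 and 0.90 for the positive pairs, lowest for Cdkn1a with Errfi1. For Nr3c1 it was then -0.82 with Fkbp5 and -0.72 with Cdkn1a. For Nr3c2 with Hsd11b1 r was 0.72 over all libraries and 0.45 without WT males 1 and 2, which held the highest and the lowest Nr3c2 level. The adjusted p for rho was above 0.05 for Nr3c2 with Hsd11b1 (0.0899) and for Fkbp5 with Cdkn1a (0.0762).

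**Figure D3:**
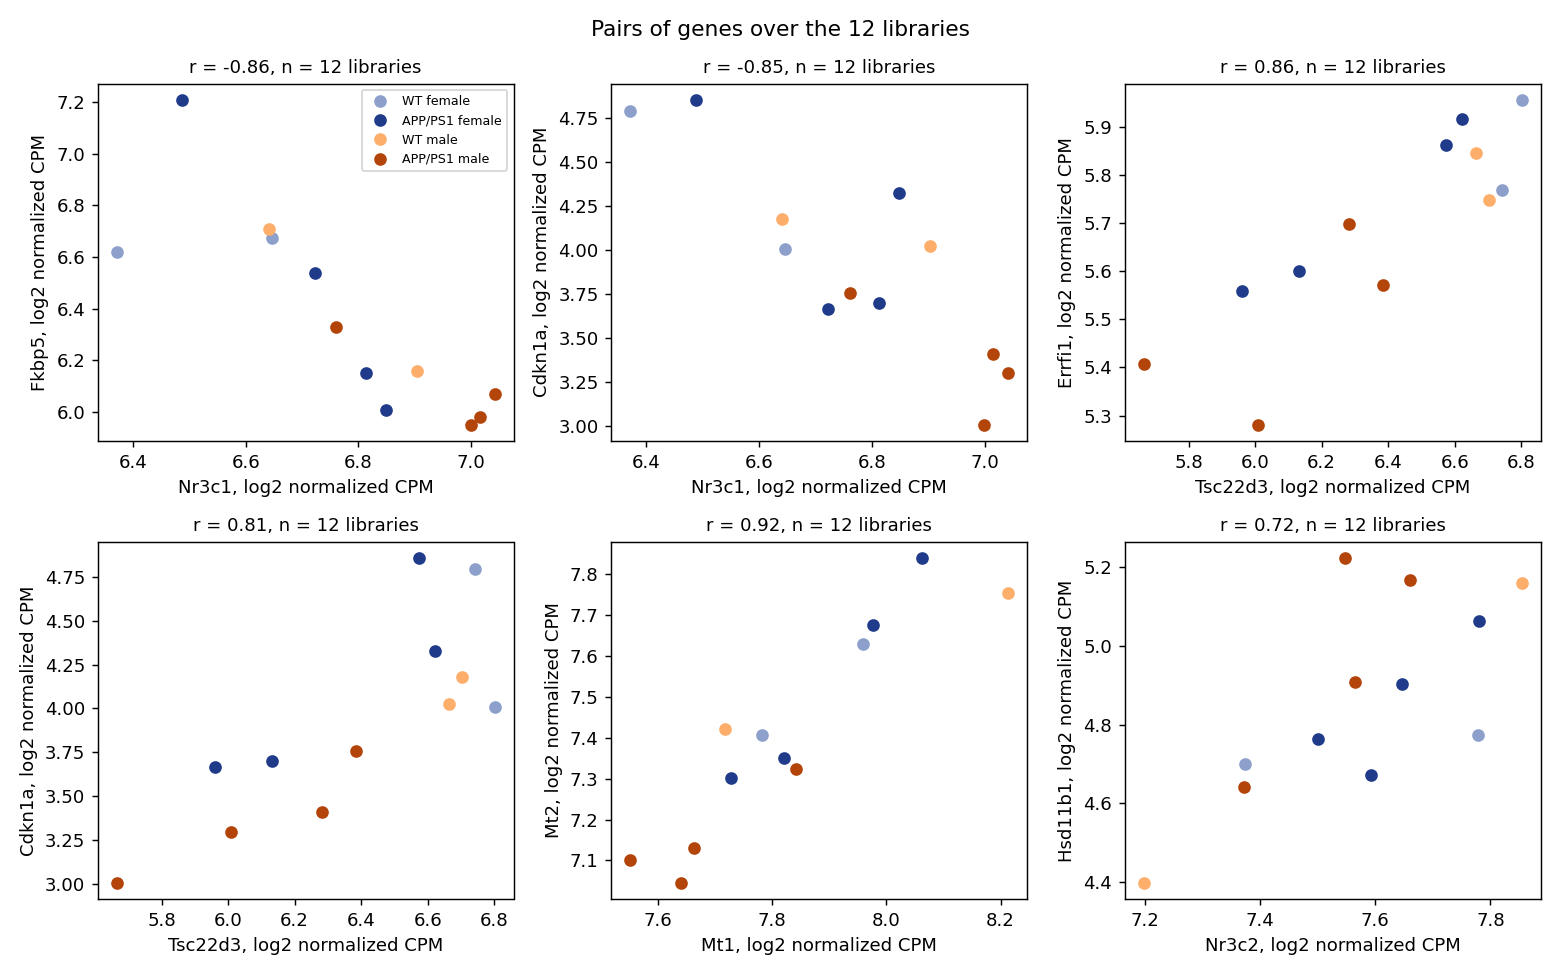
Log2 normalized CPM of 6 pairs of genes, with 1 point per library coloured by group and Pearson r over the 12 libraries above each panel. Fkbp5 and Cdkn1a fall along the Nr3c1 axis (r = -0.86 and -0.85), and Mt2 climbs with Mt1 (r = 0.92).

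Other genes known to be induced by glucocorticoids varied over the libraries in a related way. A list of 30 such genes, none of them among the 10, was compared with them, and 29 were tested. Their correlation with the mean standardized level of the 5 induced genes had a median of 0.65, and 18 of 29 (62.1%) exceeded 0.5, against 4.58% of all genes tested. The mean level of the list had r = 0.93 and rho = 0.90 with it over all 12 libraries, and r = 0.90 and rho = 0.69 within the 8 APP/PS1 libraries. Plin4, which coats lipid droplets, Hif3a, a hypoxia-factor relative, and Xdh, xanthine dehydrogenase, stand out in the heat map of library levels and were picked after their values were seen. Their averaged log2 fold changes were -1.19 (SE 0.791), -0.75 (SE 0.341) and -0.57 (SE 0.209), with adjusted p of 0.708, 0.561 and 0.402 in edgeR's quasi-likelihood test.

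**Figure D4:**
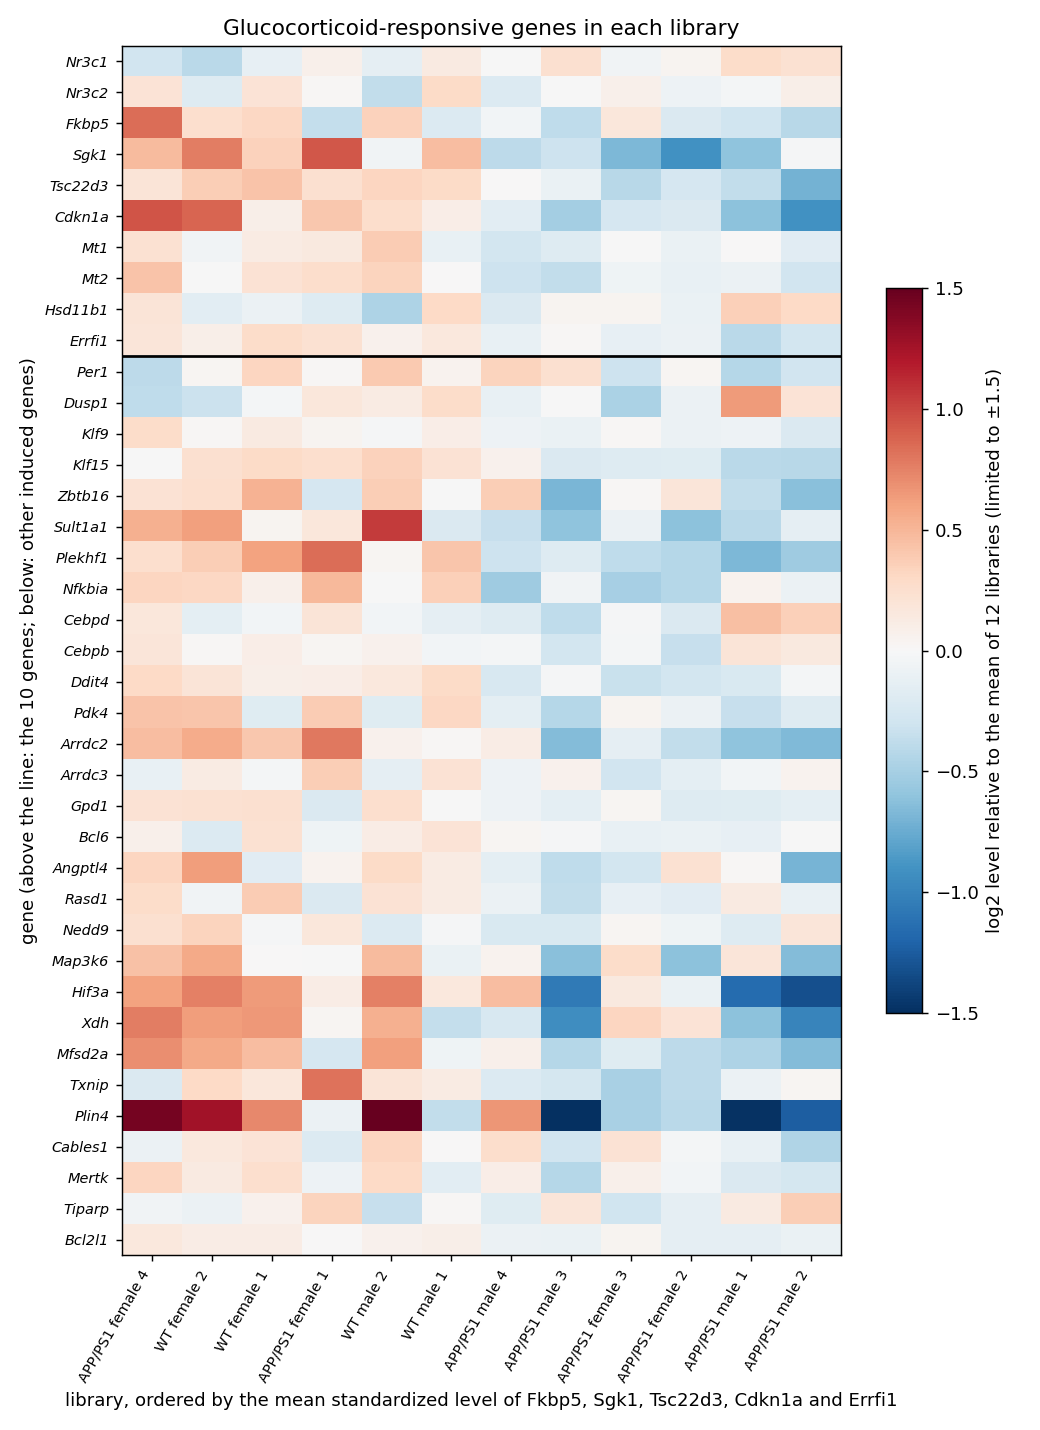
Log2 level relative to the mean of 12 libraries (colour, limited to ±1.5) for the 10 genes above the line and 29 other glucocorticoid-induced genes below it. Libraries run from left to right by falling mean standardized level of Fkbp5, Sgk1, Tsc22d3, Cdkn1a and Errfi1, from 1.21 in APP/PS1 female 4 to -1.20 in APP/PS1 male 2, and red gives way to blue in most rows.

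In the genotype contrast none of the 29 genes was called, and 27 had an averaged log2 fold change below 0, with a median of -0.28 against 0.01 for all genes. At an unadjusted p under 0.05, 9 were lower and 0 higher in APP/PS1, against 3.31% and 6.15% of all genes. The smallest p-values were those of Gpd1, glycerol-3-phosphate dehydrogenase (log2 fold change -0.28, SE 0.0729, adjusted p = 0.114), and of Klf15, a transcription factor of metabolic genes (-0.38, SE 0.0972, adjusted p = 0.116), in edgeR's quasi-likelihood test. Klf15 was at 33.7 and 32.4 normalized CPM in WT females and at 32.1 and 35.2 in WT males, and between 20.5 and 32.9 in the 8 APP/PS1 libraries with a median of 24.1, where APP/PS1 female 1 alone reached the WT range. Both were called with the likelihood ratio test, which called 3 of the 29 genes, and with DESeq2, which called 5.

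Single libraries decided whether genes of this list passed the threshold. Called lower were 7 of the 29 without APP/PS1 female 4, 6 with APP/PS1 male 4 left out, and 5 with APP/PS1 female 1 left out. Without WT male 1 the count was 3 and without APP/PS1 female 3 it was 1, and leaving out any of the other 7 libraries gave 0. Without the 3 choroid plexus-rich libraries all 29 log2 fold changes were below 0, with a median of -0.25, and 5 genes were called. The list was chosen with results of these data known, and the counts describe it without a test of the list.

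The machinery around the receptors was examined as 2 lists, and their differences were not tested against those of the induced genes. Of 14 receptor chaperones and coregulators, 0 were called, with a median averaged log2 fold change of 0.01. The smallest p-value was that of the cyclophilin Ppid (0.12, SE 0.0464, adjusted p = 0.381 in edgeR's quasi-likelihood test). Of 15 genes of corticosteroid supply and the stress axis 10 were tested, and Abcb1b was called higher in APP/PS1 (log2 fold change 0.49, SE 0.103, adjusted p = 0.0413 in the same test), with 0 lower.

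Abcb1b encodes a P-glycoprotein that exports drugs and steroids across membranes. It was at 3.82 and 3.76 normalized CPM in WT females and at 3.57 and 4.08 in WT males, and between 4.91 and 5.83 in the 8 APP/PS1 libraries with a median of 5.39. Every APP/PS1 library was above every WT library, as for 1.31% of all genes. The call was lost without WT female 1, without WT female 2, without WT male 1 and without the 3 choroid plexus-rich libraries. The summed level of 10 endothelial markers, cells in which such pumps are known, was 207 to 294 normalized CPM in APP/PS1 libraries and 202 to 290.2 in WT libraries. The related gene Abcb1a of the same list averaged 32.0 normalized CPM over the libraries, against 4.85 for Abcb1b. Its averaged log2 fold change was -0.03 (adjusted p = 0.951 in edgeR's quasi-likelihood test). Abcb1b overlaps an annotated gene on its strand and another antisense to it. Akr1c14, a steroid-reducing enzyme, had the next smallest p in that list (log2 fold change 0.33, SE 0.189, adjusted p = 0.635 in edgeR's quasi-likelihood test).

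Inflammatory genes that glucocorticoids repress were mostly under the expression filter, with 3 of 11 tested and 0 called. Icam1, an adhesion molecule, was at 1 and 1.68 normalized CPM in WT females and at 1.26 and 2.41 in WT males, and between 1.65 and 3.03 in APP/PS1 libraries with a median of 2.3. The groups overlapped, and its averaged log2 fold change was 0.55 (SE 0.204, adjusted p = 0.367 in edgeR's quasi-likelihood test). Nfkb1 had a log2 fold change of 0.03.

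Lists for the other known inducers of these genes were examined in the same way. Of 11 metal and oxidative response genes, 0 were called, and the smallest p-values were those of the brain metallothionein Mt3 (-0.11, adjusted p = 0.485) and the heme oxygenase Hmox1 (0.25, adjusted p = 0.528). Of 13 p53 targets tested, 0 were called and 0 reached an unadjusted p under 0.05, and Sesn2 (-0.23) and Bax (0.11) had the smallest p-values. Of 10 genes of the EGF receptor family and its feedback tested, 0 were called and 0 reached an unadjusted p under 0.05, with Lrig1 (0.14) and Spry2 (0.14) first. The likelihood ratio test and DESeq2 also called 0 genes in each of these 3 lists.

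Of 10 immediate early genes tested, Fosb, an activity-induced transcription factor, was called lower in APP/PS1 (log2 fold change -0.47, SE 0.107, adjusted p = 0.06 in edgeR's quasi-likelihood test), with 0 higher. It was at 22.7 and 15.5 normalized CPM in WT females and at 21.1 and 20.7 in WT males, and between 9.02 and 17.1 in APP/PS1 libraries with a median of 12.9, so the groups overlapped through WT female 2. Nr4a1 was next (-0.21, adjusted p = 0.726). The Fosb call was lost without RUV factors, and also when any one of 7 libraries was left out, namely females 1 and 3 or males 1, 2 and 4 of APP/PS1, WT female 1, or male 1 of WT. Of 15 circadian clock genes, 0 were called, and Bhlhe41 (0.18, adjusted p = 0.265) and Nr1d1 (-0.12, adjusted p = 0.542) came first. The 2 other tests likewise called 0 clock genes, chaperones, coregulators and repressed inflammatory genes, and both called Fosb and Abcb1b.

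**Figure D5:**
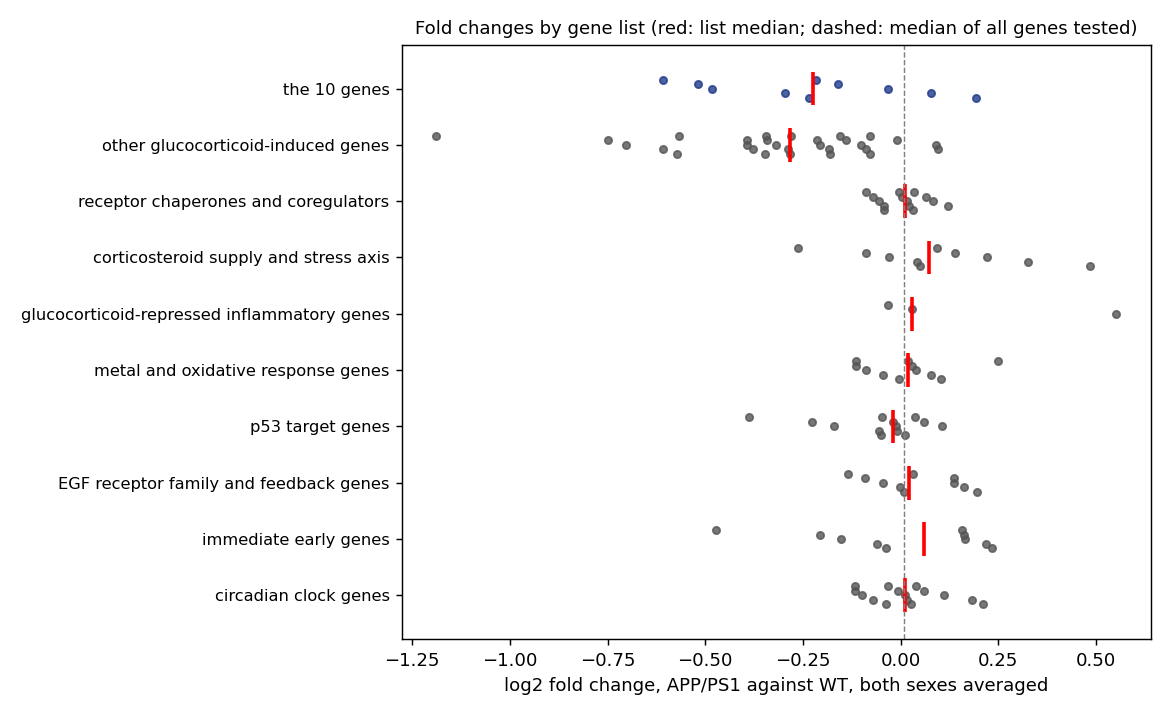
Averaged log2 fold change of APP/PS1 against WT (horizontal axis) for each gene tested (points) of the 10 genes and of each comparison list. Red bars are list medians and the dashed line is the median of all genes tested, 0.01. The medians of the 10 genes and of the other induced genes are -0.23 and -0.28, and those of the remaining lists lie between -0.02 and 0.07.

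Other features moved with the level of the induced genes over the libraries, and their part in it was not tested. With the mean standardized level of the 5 induced genes, the mean level of immediate early genes had r = -0.59 over the 12 libraries and -0.81 within the 8 APP/PS1 libraries. The mean level of EGF receptor family and feedback genes had r = -0.70 and -0.72, and blood cell markers r = -0.66 and -0.93. Taken singly over the 12 libraries, genes of the EGF list had a median r of -0.23. The receptor genes Egfr, Erbb2, Erbb3 and Erbb4 had r between -0.24 and 0.03. Microglial markers had r = -0.69 over all libraries and -0.44 within APP/PS1. Endothelial markers had r = -0.46 and rho = -0.59 over all libraries, and r = -0.56 and rho = -0.88 within APP/PS1. Astrocyte markers had r = 0.44 and 0.40, and meningeal fibroblast markers r = -0.11 and -0.48. The summed level of blood cell markers was lowest, at 32.0 normalized CPM, in APP/PS1 female 4 and lay between 47.2 and 71.3 elsewhere. Coefficients were nearer to 0 for the clock genes (-0.18), the choroid plexus markers (0.05), the RUV factors (0.03 and -0.06) and the total counts (-0.06). These values are descriptions over few libraries.

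The genes whose levels most resembled that of the 5 induced genes were ranked over all genes tested, by Pearson r over the 12 libraries. They were Gm19439 (0.93), the glucose transporter Slc2a1 (0.93), Lrrc58 (0.92), the potassium channel Kcna5 (0.92), Arrdc2 (0.89), the Max-binding repressor Mxd4 (0.88), the survival gene Bcl2l1 (0.88), the amino acid transporter Slc38a2 (0.88), Plekhf1 (0.88) and the GTPase Rhou (0.87). Arrdc2, Bcl2l1 and Plekhf1 were also on the list of other induced genes. Slc2a1 was at 104 and 121 normalized CPM in WT females, at 102 and 117 in WT males, and between 66.9 and 134 in APP/PS1 libraries with a median of 81, where APP/PS1 female 4 was highest. None of the 10 was called in the averaged genotype contrast, and the smallest adjusted p among them was that of Lrrc58, 0.16, in edgeR's quasi-likelihood test.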

How the data were processed

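The deposited values are counts per gene, which the authors left unnormalized. According to the labels and the methods, reads passed through Trimmomatic, STAR (GRCm38) and HTSeq, and versions, annotation release and strand option are not given in the sources used here. GENCODE release M21, which held 55480 of the 55573 identifiers, supplied symbols, positions and overlaps. No read processing was repeated. Total counts lay between 36714316 and 50643565, and animal-to-animal spread limited the precision. Chi-square values per degree of freedom were 15.5 to 73.0 over 14 pairs of libraries within groups, above sampling noise.

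The filter asked for 1 log2 CPM or more in 3 or more libraries and retained 14008 genes. One edgeR model (version 4.0.16 under R 4.3.3, quasi-likelihood test, upper-quartile scaling) covered the 12 libraries and included 2 RUV factors. Control genes for these factors, whose computation was rewritten here, were those outside the 5000 best-ranked in a preliminary test. Benjamini-Hochberg adjustment ran over the whole set of tested genes, with calls at an FDR under 0.1. The likelihood ratio test of the study was an alternative here, as were DESeq2 1.42.0, TMM scaling, other filters, fewer RUV factors, a choroid plexus covariate, the replicate number as a block, single-sex fits, an FDR of 0.05 and leaving out libraries. The likelihood ratio test without RUV factors was chosen after seeing the data. Log2 levels used a pseudocount of 0.5, and permutation tests of correlations used 100000 resamples, all two-sided. The fitting code was also run on simulated counts. These held no unwanted variation shared between genes, so that run does not bear on the RUV step.

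The 10 genes and all lists were chosen with earlier results of these data known. Genes were named by a rule: the 10 genes, called genes and the 2 smallest p-values of each list, and the 10 genes most alike. Plin4, Hif3a, Xdh, Abcb1a and the EGF receptor genes were named outside it. The result of 1 gene that met the rule is not reported here. Replicates differ by number in the labels, and the methods name them as separate mice. Promoter sequences are from RefSeq (GRCm38.p6).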

Additional observations from a re-analysis of the deposited data

Results flagged for a closer look

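Nr3c1 in APP/PS1 males was marked for a sample far from the others. APP/PS1 male 4 was lowest at 107.9 normalized CPM, and its gap to the next library made up 0.837 of the range of the 4 males, above Dixon's 95% critical value of 0.829. This was 1 of 20 combinations of a gene and a group of 4 libraries examined, and chance marks about 1 in 20.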

How the results depend on the processing

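The count of 0 genes called among the 10 held in all 6 contrasts under the likelihood ratio test, DESeq2, TMM scaling, both other filters, no or 1 RUV factor, the choroid plexus covariate, an FDR of 0.05 and without the 3 choroid plexus-rich libraries, as far as these could be fitted. In the averaged contrast it was 1 with the replicate block (Nr3c1, log2 fold change 0.30, adjusted p = 0.0757) and 1 with the likelihood ratio test without RUV factors (Tsc22d3, adjusted p = 0.0667). With single libraries left out it ranged from 0 to 1 in the averaged contrast (Nr3c1 without APP/PS1 female 4, adjusted p = 0.0966, and Mt1 without WT male 1, adjusted p = 0.064) and from 0 to 1 in males (Mt1 without WT male 1, adjusted p = 0.0539). Where a sex was left with 1 WT library, that library was taken to vary like the other groups. Whether the replicate numbers pair the libraries was not settled. Over 14 same-numbered pairs the correlation of deviations from group means ranged from -0.64 to 0.70, and 4 exceeded 0.1. The 2 libraries of a WT group have opposite deviations, so the check cannot decide for pairs that hold a WT library. The block called 6 of the 29 other induced genes, against 0, and called neither Abcb1b nor Fosb.

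Some log2 fold changes reversed sign, none of them called. Nr3c2 in the averaged contrast was 0.011 without RUV factors, 0.015 with 1 factor, 0.016 with the covariate and 0.010 with the likelihood ratio test without factors, and in females 0.043, 0.034, 0.033 and 0.043, and 0.039 in the single-sex fit. Nr3c2 in males was 0.0045 without a filter, 0.00085 with the CPM filter, 0.0073 with the replicate block and 0.00039 without choroid plexus-rich libraries. In females under no RUV factors, 1 factor, the covariate, the likelihood ratio test without factors, the single-sex fit and the replicate block, Mt1 was 0.030, 0.027, 0.029, 0.030, 0.026 and 0.026, Mt2 was 0.038, 0.035, 0.038, 0.038, 0.033 and 0.0055, and Hsd11b1 was 0.12, 0.12, 0.12, 0.12, 0.12 and 0.042. Cdkn1a in females was 0.019 without choroid plexus-rich libraries, against -0.28 with all libraries. The causes were not tested.

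With single libraries left out, log2 fold changes ranged from -0.15 to 0.15 (Nr3c2), and from -0.053 to 0.28 (Hsd11b1) in the averaged contrast. In females they ranged from -0.25 to 0.18 (Nr3c2), -0.088 to 0.11 (Mt1), -0.13 to 0.13 (Mt2), -0.078 to 0.021 (Hsd11b1) and -0.78 to 0.21 (Cdkn1a). In males they ranged from -0.27 to 0.33 (Nr3c2), -0.13 to 0.55 (Hsd11b1) and -0.57 to 0.087 (Fkbp5, -0.30 with all libraries). Of the averaged log2 fold changes, those of Nr3c1, Fkbp5, Sgk1, Tsc22d3, Cdkn1a, Mt1, Mt2 and Errfi1 kept their direction in all 23 alternatives.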
